A study of Homo sapiens with 8 samples.

Results

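The MYC, MAX and MXD network was followed in the melanoma line SK-MEL-5, a long-established human culture, through 36 probe sets on Affymetrix arrays. They are the probe sets whose only gene symbol in the platform annotation is MYC (1 probe set), MAX (12), MXD1 (2), MXD3 (3), MXD4 (5), MXI1 (5), MNT (2) or MLX (6). The deposited table held 49495 probe sets, of which 45278 carried 1 gene symbol. The study measured mRNA on 8 arrays in 4 groups of 2. One group received THZ1, a covalent inhibitor of the transcription kinase CDK7, at 250 nM for 6 h together with 25 µM DMSO, and its control received 25 µM DMSO alone, with no duration given. Another group was transfected with an siRNA against MITF (siMITF), the melanocyte lineage transcription factor, and its control with a non-targeting siRNA (siCtrl). The time of harvest after transfection is not given. All groups are the same line in the same medium, so each comparison concerns 1 cell line, and nothing in the labels ties the 2 arrays of a group to different cultures. p-values therefore measure the spread between these arrays only, which may be technical. By the series' title, the study asked whether CDK7 inhibition depletes lineage genes kept high by large enhancers in melanoma.

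MYC is a basic helix-loop-helix leucine zipper transcription factor that binds DNA as a pair with MAX, most tightly at the E-box CACGTG, and raises transcription of genes for growth, ribosome production and division. MXD1, MXD3, MXD4, MXI1 and MNT pair with the same partner, MAX, bind the same sites and recruit the SIN3 and histone deacetylase corepressor, so they oppose MYC. MLX is the partner of the glucose-sensing Mondo proteins, MLXIP (MondoA) and MLXIPL (ChREBP), and also pairs with MXD1, MXD4 and MNT, which joins both branches of the network. MYC mRNA is short-lived, and MYC transcription is known to depend on large enhancers in many tumour lines.

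Values are array signals on a linear scale, which the authors normalized to cell number, and changes are differences of mean log2(signal + 16). The constant of 16 makes changes of dim probe sets smaller than their true size. A probe set was tested if its mean log2 value over the 8 arrays reached the 40th percentile of the probe sets with 1 symbol, which corresponds to a signal of 39.2. This left 27167 probe sets, 30 of the 36 members among them. The tests used limma with Benjamini-Hochberg adjustment over all 27167, and a probe set passed at an adjusted p under 0.05. On the deposited scale the median tested probe set changed by -0.14 with THZ1 and by -0.64 with siMITF, and even arrays of 1 group lay apart by a shift common to most probe sets. Changes are therefore also given on a relative scale, on which each array was centred so that the median probe set lies near 0 (0.04 with THZ1 and 0.00 with siMITF). The deposited scale has 1 SE for every probe set, 0.24, and the fit treats it as exactly known, so its small adjusted p values overstate the evidence. With each probe set's own variance, 0 of 27167 passed on that scale in limma's linear model (2873 at an unadjusted p under 0.05 with THZ1, 13785 with siMITF). The number of arrays limits the precision, and in these bulk samples fewer expressing cells and less RNA per cell cannot be told apart.

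MITF itself had a signal of 1747 and 1168 on the siMITF arrays, against 3436 and 3936 on the siCtrl arrays. All 9 melanocyte lineage genes with a probe set were above the cut, among them PMEL, with signals from 4748 to 12592 over the 8 arrays. Above it were also 0 of 4 leukocyte genes, 1 of 4 keratinocyte genes (KRT10) and 3 of 6 fibroblast genes (LUM, DCN and PDGFRA). The collagen genes COL1A1, COL1A2 and COL3A1 were below it, and no marker was at 0. The summed signal of the 6 fibroblast genes was 2658 and 3450 with THZ1, against 2371 and 2854 with DMSO. With siMITF the same sum was 979 and 753, against 1541 and 1873 with siCtrl. The 4 keratinocyte genes summed to 543 and 775 with THZ1, against 600 and 889 with DMSO, and to 372 and 317 with siMITF, against 478 and 577 with siCtrl. The part of these genes in the results was not tested. The median signal of the 100 ERCC spike-in probe sets was 48.0 to 53.9 on the THZ1 and DMSO arrays and 27.6 to 30.7 on the siMITF and siCtrl arrays, so signal levels are not ordered across the drug and siRNA sets.

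Promoter sequence is shown for the 3 member genes that hold the E-box of this network just upstream of their start. RefSeq promoter entries (GRCh38.p14) were at hand for 7 of the 8 genes, with 10 starts in all; the MYC promoter was not analysed here. The 250 bases upstream of each start were searched for CACGTG, which reads the same on both strands. It was found for MXD4, MLX and MNT, in 3 of 10 windows, against 6.34% of 35116 promoter windows of the same length. The related site CATGTG, which MITF also binds, was in 0 of the 10 windows on either strand and in 9.42% of all windows. A match is a description of these letters, not a shown binding site. The windows below read 5′ to 3′ toward the start, with CACGTG in capitals. They lie at chr4:2262110-2262359 on the minus strand for MXD4, where the first base of the site is 238 bases upstream of the start. For MLX they lie at chr17:42566850-42567099 on the plus strand, with the site 50 bases upstream. For MNT they lie at chr17:2401061-2401310 on the minus strand, with the site 193 bases upstream.
MXD4: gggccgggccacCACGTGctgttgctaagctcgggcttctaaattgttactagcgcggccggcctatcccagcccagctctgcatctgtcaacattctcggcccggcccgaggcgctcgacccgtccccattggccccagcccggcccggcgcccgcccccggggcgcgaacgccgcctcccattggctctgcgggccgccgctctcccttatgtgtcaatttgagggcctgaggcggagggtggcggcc
MLX: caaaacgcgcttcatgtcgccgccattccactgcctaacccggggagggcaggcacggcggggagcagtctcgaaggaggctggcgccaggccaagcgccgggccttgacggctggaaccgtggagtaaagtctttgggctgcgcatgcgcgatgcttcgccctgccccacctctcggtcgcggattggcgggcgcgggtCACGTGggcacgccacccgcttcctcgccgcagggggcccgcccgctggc
MNT: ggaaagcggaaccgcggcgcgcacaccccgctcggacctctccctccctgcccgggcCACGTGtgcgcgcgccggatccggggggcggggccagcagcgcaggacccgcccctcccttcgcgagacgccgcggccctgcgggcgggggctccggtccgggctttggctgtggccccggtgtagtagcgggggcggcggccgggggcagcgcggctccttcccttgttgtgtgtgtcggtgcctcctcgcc

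Relative to the median probe set, MYC and 5 of 6 MLX probe sets were lower and all 5 MXI1 probe sets higher with THZ1. With siMITF all 5 MXD4 probe sets were higher and 3 of 6 MLX probe sets lower. With THZ1, 6 member probe sets were lower and 8 higher on the relative scale, out of 30 tested, where 18.3% of all tested probe sets were lower and 15.0% higher. On the deposited scale 2 were lower, both of MLX, and 0 higher, against 7.19% and 0.114% of all. Their 2 lower calls on that scale were lost without THZ1 replicate 1, and likewise without DMSO replicate 2. Calls among all tested probe sets also became fewer in both settings. With siMITF, 25 members were lower and 1 higher on the deposited scale, where 65.1% of all were lower and 0.294% higher. Without siMITF replicate 2, and likewise without siCtrl replicate 2, fewer members passed on that scale, counted in both directions. Fewer of all tested probe sets passed in these settings as well. On the relative scale 6 members were lower and 5 higher with siMITF, against 24.3% and 19.6% of all. The median change over the 30 members was 0.02 with THZ1 and -0.06 with siMITF on the relative scale, close to that of all tested probe sets. With no filter on low signal, 7 members passed with THZ1 in place of 14, and 19 with siMITF in place of 11. Members moved in both directions. Groups did not overlap, on the deposited scale, for 7 members downward and 0 upward with THZ1 (27.6% and 1.45% of all), and for 25 downward and 3 upward with siMITF (89.6% and 0.843%). The same counts on the relative scale were 11 and 11 with THZ1 (30.0% and 36.7% of all) and 13 and 6 with siMITF (38.1% and 36.0%).

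**Figure D1:**
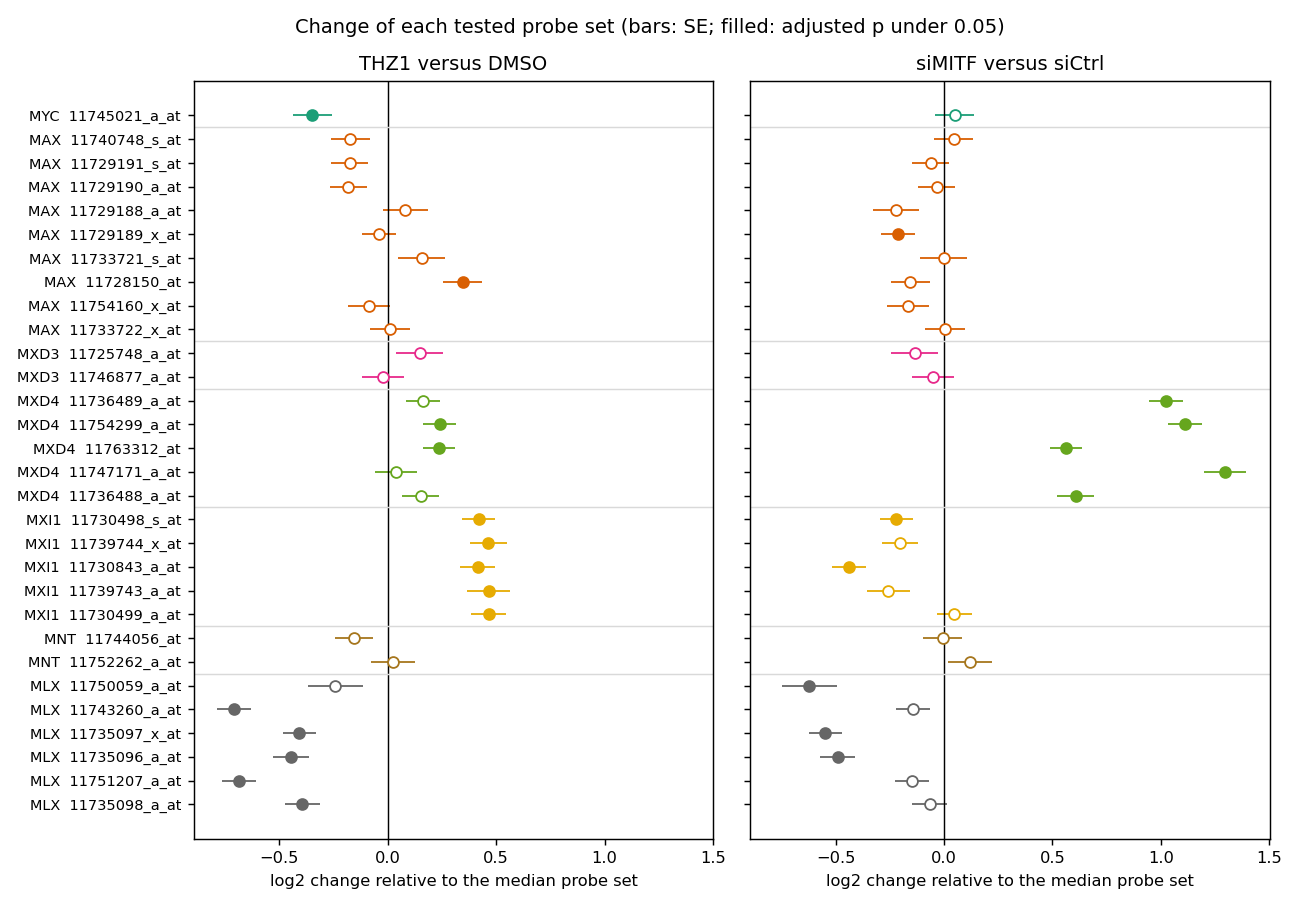
Change of the 30 tested probe sets of the network relative to the median probe set, with THZ1 against DMSO (left) and siMITF against siCtrl (right). The x axis is the log2 change, bars are SE, and filled points passed at an adjusted p under 0.05. The 5 MXI1 probe sets lie between 0.41 and 0.47 with THZ1, and the 5 MXD4 probe sets between 0.56 and 1.30 with siMITF.

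MYC, the activator of the network, was lower with THZ1 on both arrays. Its 1 probe set (11745021_a_at, gene at chromosome 8, 127735434 to 127742951 in GRCh38.p14) had signals of 1190 and 1432 on the THZ1 arrays, against 1666 and 2123 on the DMSO arrays. The groups did not overlap. The log2 change was -0.52 on the deposited scale (SE 0.24, n = 2 per group, limma adjusted p = 0.214) and -0.35 on the relative scale (SE 0.09, adjusted p = 0.0135). The relative call was lost without THZ1 replicate 2 (-0.28, adjusted p = 0.0857), without DMSO replicate 2 (-0.32, adjusted p = 0.0686), and with its own variance or no filter (adjusted p = 0.0649 and 0.0510).

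With siMITF, MYC followed the general shift of the arrays. Its signal was 980 and 713 on the siMITF arrays, against 1131 and 1420 on the siCtrl arrays, so both siMITF arrays were the lower ones. The change was -0.59 on the deposited scale (SE 0.24, limma adjusted p = 0.0254) and 0.05 on the relative scale (SE 0.09, adjusted p = 0.671). Quantile normalization, which forces all arrays to 1 distribution, gave 0.28 in its place (adjusted p = 0.0181). The THZ1 and siMITF changes of MYC differed by -0.40 on the relative scale (SE 0.13, adjusted p = 0.0278), and by 0.07 on the deposited scale (SE 0.34, adjusted p = 0.894). The relative difference did not pass under 7 of its 16 alternatives.

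**Figure D2:**
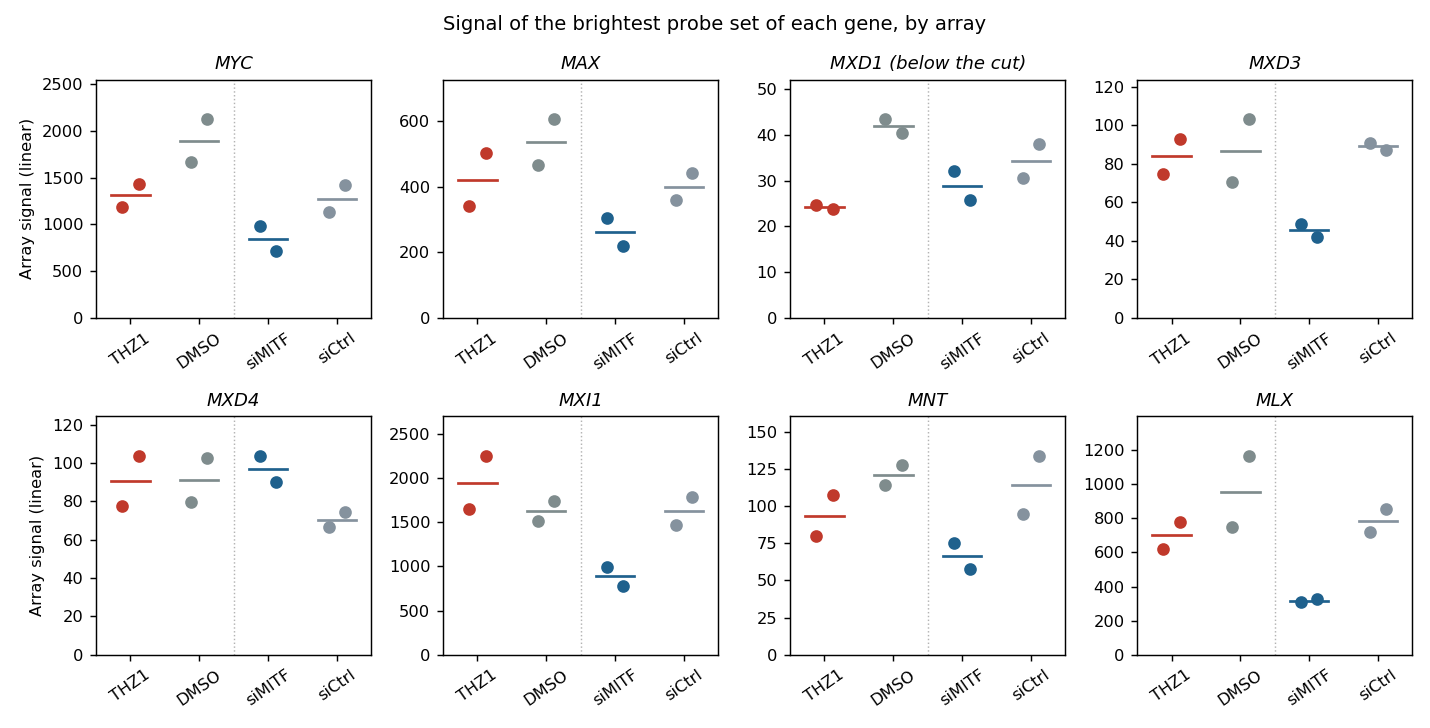
Signal of the brightest probe set of each member gene on each array (points; short lines are means of 2 arrays), on a linear axis from 0. The dotted line separates the drug arrays from the siRNA arrays, whose levels are not comparable. MYC is lower on both THZ1 arrays, at 1190 and 1432, than on both DMSO arrays, and MXD4 is higher on both siMITF arrays, at 103.5 and 90.1, than on both siCtrl arrays.

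MAX, the partner that MYC needs to bind DNA and that it shares with the MXD proteins, gave 1 call in each comparison on the relative scale among its 9 tested probe sets. The call was upward with THZ1, where 15.0% of all tested probe sets were higher, and downward with siMITF, where 24.3% were lower. The brightest MAX probe set (11740748_s_at) had signals of 340 and 503 with THZ1, against 466 and 605 with DMSO, and the groups overlapped. With siMITF it had 303 and 219, against 358 and 442 with siCtrl, with no overlap. The relative changes were -0.17 with THZ1 (SE 0.09, limma adjusted p = 0.160) and 0.05 with siMITF (SE 0.09, adjusted p = 0.702). The siMITF value was 0.31 after quantile normalization (adjusted p = 0.00600). All 9 tested MAX probe sets were lower with siMITF on the deposited scale, from -0.86 to -0.60, where 65.1% of all tested probe sets were lower and the median was -0.64, and 0 of 9 passed with THZ1 in limma's test, at an unadjusted p under 0.05 as well. Relative to the median probe set 1 of 9, 11729189_x_at, was lower with siMITF (-0.21, SE 0.08, adjusted p = 0.0480), and this call was kept under 4 of 12 alternatives.

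The MAX probe set called with THZ1 was 1 of 9, where 15.0% of all tested probe sets were higher. 11728150_at had signals of 123 and 143 with THZ1, against 109 and 124 with DMSO, and 63.1 and 49.1 with siMITF, against 101 and 116 with siCtrl. Relative to the median probe set it was higher with THZ1, by 0.35 (SE 0.09, adjusted p = 0.0139), while the other 8 tested MAX probe sets had -0.18 to 0.16 and did not pass. Its THZ1 and siMITF changes differed by 0.50 on the relative scale (SE 0.13, adjusted p = 0.00956) and by 0.97 on the deposited scale (SE 0.34, adjusted p = 0.0347). The relative rise passed under 8 of 12 alternatives, with values from 0.25 to 0.44. The remaining 3 MAX probe sets lay below the cut, with signals from 10.5 to 35.6.

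MXI1, a repressor that competes with MYC for MAX, rose relative to the median probe set with THZ1 on all 5 of its probe sets. The brightest (11730498_s_at) had signals of 1650 and 2248 on the THZ1 arrays, against 1511 and 1744 on the DMSO arrays. These ranges overlapped on the deposited scale, where the change was 0.24 (SE 0.24, limma adjusted p = 0.822). The other 4 probe sets had 0.24 to 0.29 there, so the direction was upward on each and no probe set passed. The relative changes were 0.41 to 0.47 (adjusted p from 0.00166 to 0.00526), and for all 5 both THZ1 arrays lay above both DMSO arrays, as was so for 36.7% of all tested probe sets. For the brightest probe set the relative change was 0.42 (SE 0.08, adjusted p = 0.00243), with 0.27 after quantile normalization and 0.38 to 0.46 with any 1 array left out. Of its 13 alternatives 12 passed, and with no filter it had 0.37 (adjusted p = 0.0617).

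With siMITF, 4 of the 5 MXI1 probe sets went the other way relative to the median probe set. The changes ran from -0.44 to 0.05, the last being that of 11730499_a_at. The signals of the brightest probe set were 997 and 781 on the siMITF arrays, against 1465 and 1780 on the siCtrl arrays, a change of -0.86 on the deposited scale (SE 0.24, limma adjusted p = 0.00136). All 5 MXI1 probe sets were lower on that scale, from -1.08 to -0.59, as were 65.1% of all tested probe sets. Relative to the median probe set 2 of 5 were lower, where 24.3% of all were: the brightest with -0.22 (SE 0.08, adjusted p = 0.0407) and 11730843_a_at with -0.44 (SE 0.08, adjusted p = 0.00147). The call of the brightest was lost under 9 of 13 alternatives, among them each replicate left out (adjusted p from 0.0667 to 0.205), the replicate block (adjusted p = 0.0710) and quantile normalization (-0.03, adjusted p = 0.742). The probe set 11730843_a_at passed under all 12 of its alternatives. The THZ1 and siMITF changes differed for all 5 probe sets on the relative scale, by 0.42 to 0.85. For the brightest the difference was 0.64 (SE 0.11, adjusted p = 0.00119), and it passed under all 16 alternatives. In the deposited values it was 1.10 (SE 0.34, adjusted p = 0.0157), and 4 of the 5 MXI1 probe sets passed, where 15.9% of all tested probe sets were higher.

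MXD4, another MAX-binding repressor, common in resting and differentiated cells, rose with siMITF relative to the median probe set on all 5 of its probe sets. The brightest (11736489_a_at) had signals of 103.5 and 90.1 on the siMITF arrays, against 66.5 and 74.3 on the siCtrl arrays. The probe set 11747171_a_at had 106.6 and 105.2 with siMITF, against 55.5 and 67.8 with siCtrl. Both siMITF arrays were thus above both siCtrl arrays on the deposited scale, as was also so for 11754299_a_at, against 0.843% of all tested probe sets. One of these 3, 11747171_a_at, passed there (0.66, SE 0.24, limma adjusted p = 0.0136), while the brightest had 0.38 (adjusted p = 0.138).

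On the relative scale the brightest MXD4 probe set had a change of 1.02 (SE 0.08, limma adjusted p = 1.32e-05), a 2.03-fold rise, and 11747171_a_at had 1.30 (SE 0.10, adjusted p = 1.13e-05). The other 3 had 0.56, 0.61 and 1.11, with adjusted p from 7.65e-06 to 0.000324. The 5 probe sets passed under every alternative in which they were tested, with the lowest value 0.33 (11763312_at with no filter). The size of the rise differed among probe sets. Those with 0.56 and 0.61, 11763312_at and 11736488_a_at, had overlapping signals on the deposited scale. The first read 73.5 and 57.7 with siMITF, against 63.96 and 76.03 with siCtrl, and their deposited changes were -0.08 and -0.03. The 6 member probe sets below the cut, of MAX, MXD1 and MXD3, had relative changes of 0.31 to 0.55 with siMITF, and deposited changes of -0.33 to -0.09. Their groups did not overlap on the relative scale, as was so upward for 36.0% of all tested probe sets. The share among all probe sets below the cut was not taken. Centring moved every probe set of an array by the same amount. Tested probe sets of other members with mean signals of 56.2 to 73.8 had relative changes of -0.13 to 0.12. The mean signals of 11763312_at and 11736488_a_at were 71.8 and 59.2. The part of low signal in the rise of these 2 MXD4 probe sets was not tested.

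With THZ1, MXD4 stayed near its DMSO level on the deposited scale. The brightest probe set had 77.4 and 103.4 with THZ1, against 79.6 and 102.5 with DMSO, a change of -0.01 (SE 0.24, limma adjusted p = 0.997). Relative to the median probe set 2 of 5, 11763312_at and 11754299_a_at, passed upward with 0.24 each (adjusted p = 0.0324 and 0.0359), a call kept under 3 of 11 and 4 of 12 alternatives, and the brightest had 0.16 (adjusted p = 0.137). Of all tested probe sets 15.0% passed upward there. The THZ1 and siMITF changes of MXD4 differed on all 5 probe sets on the relative scale, from -1.26 to -0.33, and by -0.86 for the brightest (SE 0.11, adjusted p = 0.000255, passing under 16 of 16 alternatives). The difference for 11763312_at, -0.33, passed under 4 of 14. In the deposited values the difference for the brightest was -0.39 (SE 0.34, adjusted p = 0.402).

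Of the other repressors, the 4 tested probe sets of MXD3 and MNT gave 0 calls on the relative scale in limma's test in either comparison, at an unadjusted p under 0.05 as well. MXD3, an MXD protein linked to dividing cells, had signals of 74.9 and 93.0 with THZ1, against 70.3 and 103.0 with DMSO, and 48.6 and 42.2 with siMITF, against 90.7 and 87.3 with siCtrl (11725748_a_at). Its siMITF change was -0.78 on the deposited scale (SE 0.24, adjusted p = 0.00371) and -0.13 on the relative scale (SE 0.11, adjusted p = 0.334). MNT, a repressor present in most cells, had 79.8 and 107 with THZ1, against 114 and 128 with DMSO, and 75.4 and 57.7 with siMITF, against 94.5 and 134 with siCtrl (11744056_at). Its relative changes were -0.16 with THZ1 (adjusted p = 0.203) and -0.01 with siMITF (adjusted p = 0.960).

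MXD1, the repressor known for its rise as cells differentiate, was dim. Both of its probe sets lay below the cut, with mean signals of 31.8 and 25.4, while the dimmest tested member, a MNT probe set, had 56.2. The probe set 11719249_at read 24.6 and 23.7 with THZ1, against 43.3 and 40.5 with DMSO, and 32.0 and 25.7 with siMITF, against 30.5 and 38.0 with siCtrl. Both THZ1 arrays were thus below both DMSO arrays on the deposited scale, while centring of the arrays made the ranges overlap. With no filter on low signal its THZ1 change was -0.53 on the deposited scale (SE 0.19, limma adjusted p = 0.141) and -0.40 on the relative scale (SE 0.13, adjusted p = 0.0543). The second probe set, 11750016_a_at, had 28.1 and 28.7 with THZ1, against 29.5 and 32.0 with DMSO.

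MLX, the partner of the Mondo proteins, was lower in both comparisons, and its 6 probe sets did so to unequal degrees. With THZ1, 11743260_a_at had signals of 391 and 539, against 782 and 945 with DMSO, and 11751207_a_at had 172 and 230, against 336 and 415. The groups did not overlap. Their changes were -0.88 and -0.86 on the deposited scale (SE 0.24, limma adjusted p = 0.00690 and 0.00907) and -0.71 and -0.68 on the relative scale (SE 0.08, adjusted p = 9.24e-05 and 0.000116). These were the 2 members that passed on the deposited scale with THZ1. The next 3 probe sets had -0.45 to -0.39 on the relative scale and passed, and the brightest, 11750059_a_at, had -0.24 (SE 0.13, adjusted p = 0.164). The 5 calls held under every alternative in which these probe sets were tested.

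With siMITF, the order of the MLX probe sets was another. The brightest had signals of 309 and 327, against 721 and 853 with siCtrl, and 11735097_x_at had 298 and 246, against 581 and 701. Their changes were -1.26 and -1.19 on the deposited scale (SE 0.24, limma adjusted p = 3.43e-06 and 1.18e-05) and -0.62 and -0.55 on the relative scale (SE 0.13 and 0.08, adjusted p = 0.00271 and 0.000283). Another, 11735096_a_at, had -0.49 (adjusted p = 0.000855). The 2 probe sets that fell most with THZ1 had -0.15 each on the relative scale with siMITF (adjusted p = 0.156 and 0.149), and 0.13 and 0.03 after quantile normalization. The brightest did not pass after quantile normalization (-0.37, adjusted p = 0.0799) or with its own variance (adjusted p = 0.0648).

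The test of the difference of both changes separated the MLX probe sets. It gave -0.56 for 11743260_a_at (SE 0.11, limma adjusted p = 0.00258), -0.54 for 11751207_a_at (SE 0.11, adjusted p = 0.00338) and -0.33 for 11735098_a_at (SE 0.12, adjusted p = 0.0422) on the relative scale. The first 2 passed under 14 of 15 alternatives each, and 11735098_a_at under 2 of 14. The other 3 probe sets had 0.04 to 0.38 and did not pass. In the deposited values the difference had 0 calls among the 6 MLX probe sets (limma, adjusted p from 0.0644 to 0.893, and 1 of 6 at an unadjusted p under 0.05). The annotation gives these probe sets the same gene symbol, and which transcripts each one detects is not analysed here.

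In all, the difference of the THZ1 and siMITF changes passed for 9 member probe sets downward and 6 upward on the relative scale, where 18.9% and 21.3% of all tested probe sets did. The downward ones were those of MYC, MXD4 (5) and MLX (3), and the upward ones those of MXI1 (5) and MAX (1). On the deposited scale 0 were lower and 5 higher (4 of MXI1 and 1 of MAX), against 0.825% and 15.9% of all. By the brightest probe set of each of the 7 tested genes, MYC and MXD4 were lower and MXI1 higher on the relative scale (21.7% and 18.7% of all genes), and MXI1 alone was called, upward, on the deposited scale (1.15% lower and 13.1% higher). The 5 deposited calls were lost without THZ1 replicate 2, DMSO replicate 1, siMITF replicate 2 or siCtrl replicate 2. Calls among all tested probe sets also became fewer in each of these settings. Without THZ1 replicate 1 more members passed, and so did more of all tested probe sets.

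The ratio of a member's signal to that of MYC on the same array is free of any scaling of whole arrays. The signal of MXI1 divided by that of MYC was 1.39 and 1.57 on the THZ1 arrays, against 0.907 and 0.822 on the DMSO arrays, a 1.71-fold higher ratio. On the siMITF arrays it was 1.02 and 1.09, against 1.30 and 1.25 on the siCtrl arrays, which is 1.21-fold lower. The groups did not overlap in either comparison, and the direction was opposite. A ratio between probe sets says that they changed unequally, and its level has no meaning as a ratio of molecules. All ratios share MYC as denominator, which had a relative change of -0.35 with THZ1. A gene at the median would therefore also have a higher ratio with THZ1. How many of all genes have ratios to MYC without overlap was not counted.

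For MXD4 the ratio to MYC was 0.0650 and 0.0722 with THZ1, against 0.0478 and 0.0483 with DMSO, or 1.43-fold higher. On the siMITF arrays the MXD4 ratio reached 0.106 and 0.126, against 0.0588 and 0.0523 on the siCtrl arrays, or 2.08-fold higher. MXD3 over MYC was 1.41-fold higher with THZ1 and 1.30-fold lower with siMITF, with no overlap in either comparison. The brightest probe sets of MXD4 and MXD3 themselves had relative changes of 0.16 and 0.15 with THZ1 and did not pass. MLX over MYC was 0.521 and 0.545 with THZ1, against 0.449 and 0.549 with DMSO, which overlapped. With siMITF it was 0.315 and 0.458, against 0.638 and 0.601 with siCtrl, or 1.63-fold lower. This ratio takes the brightest MLX probe set, the only 1 of 6 that did not pass with THZ1. The other 5 had relative changes of -0.71 to -0.39 with THZ1, against -0.35 for MYC. With siMITF they had -0.55 to -0.07, against -0.62 for the brightest. Their ratios to MYC were not taken. MAX over MYC was 1.12-fold higher with THZ1 and 1.02-fold lower with siMITF. MNT over MYC was 1.11-fold higher with THZ1, with overlap, and 1.12-fold lower with siMITF. In exact two-sided permutation tests of these 12 log2 ratios, p was 0.333 for each ratio whose groups did not overlap, which is the smallest p that 2 arrays against 2 allow, and 0.667 or 1 for the others, so no ratio could pass.

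**Figure D3:**
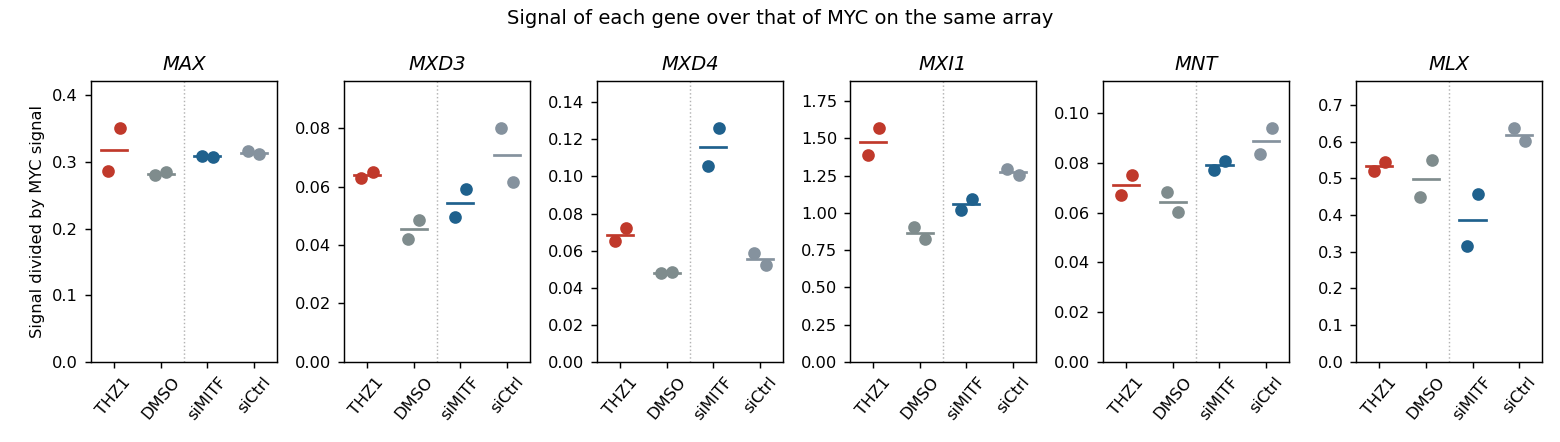
Signal of the brightest probe set of each gene divided by the MYC signal on the same array (points; lines are means of 2 arrays), on linear axes from 0. The MXI1 ratio is 1.39 and 1.57 on the THZ1 arrays, above both DMSO arrays, and the MXD4 ratio is 0.106 and 0.126 on the siMITF arrays, above both siCtrl arrays.

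The genes whose relative signal over the 8 arrays was most like that of a member were found by Pearson correlation among the brightest probe sets of 11947 tested genes. With 4 groups of 2 arrays these correlations describe the group pattern and carry no test. They also take in any difference of level between the drug and siRNA sets, which cannot be told apart from how those sets were scaled. For MYC they were RBM27 (r = 0.96), DNAJB1, an HSP40 co-chaperone (0.94), SFT2D3 (0.94), PPP2R3A, a regulatory subunit of the phosphatase PP2A (0.94), and SETD1A, a histone H3 methyltransferase (0.93). For MXD4 they were AGMO and THBS3 (0.99 each), with relative changes of 1.04 and 0.80 with siMITF. For MXI1 they were COX16, an assembly factor of cytochrome oxidase (0.98), and HAUS3 (0.97), and for MLX TRMT2A and LNX2 (0.94 each). For MAX they were TMEM168 (0.94) and MRPL45 (0.92), for MXD3 PI16 (0.98) and APOL6 (0.96), and for MNT ZNF266 (0.98) and NFIA (0.97).

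Around the members, relatives in the network changed in part. MLXIP, the MondoA partner of MLX, had signals of 438 and 669 with THZ1, against 809 and 1044 with DMSO. Its relative change was -0.57 with THZ1 (limma adjusted p = 0.00115) and -0.19 with siMITF (adjusted p = 0.116). MGA, a large MAX-binding repressor, had 65.8 and 111 with THZ1, against 120 and 168 with DMSO, and 117 and 87.8 with siMITF, against 92.7 and 123 with siCtrl. Its relative change was -0.46 with THZ1 (adjusted p = 0.00577) and 0.58 with siMITF (adjusted p = 0.00108), and these changes differed by -1.03 (adjusted p = 0.000325). Its deposited change with siMITF was -0.07 (adjusted p = 0.799). MYCL lay just above the cut and read 33.9 and 21.6 with siMITF, against 32.5 and 44.5 with siCtrl. Its siMITF change was 0.32 on the relative scale (limma adjusted p = 0.0221) and -0.32 on the deposited scale (adjusted p = 0.208). The part of low signal in the MYCL values was not tested. MYCN and MLXIPL passed in neither comparison on the relative scale. In the deposited values MLXIP was lower in both comparisons (-0.75 and -0.83, adjusted p = 0.0316 and 0.00185) and MLXIPL with siMITF (-0.65, adjusted p = 0.0139).

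Known MYC targets were counted from lists, 1 probe set per gene, beside all 11947 genes, of which 21.8% were lower and 13.0% higher with THZ1 on the relative scale, and 23.3% and 19.9% with siMITF. Of 32 nucleolar and ribosome biogenesis genes, 12 were lower and 1 higher with THZ1 (median -0.09), and 13 lower and 2 higher with siMITF (median -0.21). PPAN, a ribosome assembly factor, fell most with THZ1 (-1.52, limma adjusted p = 1.85e-06), followed by RRS1 (-0.73, adjusted p = 0.000110), while NIP7 had -0.67 with siMITF (adjusted p = 0.000303). Of 31 metabolic and growth genes, 4 were lower and 6 higher with THZ1 (median 0.08), and 15 lower and 2 higher with siMITF (median -0.17), with TYMS at -0.71 and EIF2S1 at -0.61. Of 16 cell cycle targets, 9 were lower and 2 higher with THZ1 (median -0.28), and 10 lower and 1 higher with siMITF (median -0.41). CKS1B had -1.03, CCNA2 -0.95, MCM5 -0.93 and CDK4 -0.79 with siMITF, whereas CDC25A had -0.58 with THZ1 and ID2, an inhibitor of helix-loop-helix factors, 1.09. The median of all genes was 0.01 in both comparisons. The deposited counts were different: with THZ1, 2 nucleolar, 0 metabolic and 1 cell cycle gene were lower, and 1 cell cycle gene higher (9.63% and 0.0753% of all genes). With siMITF, 30 of 32, 28 of 31 and 15 of 16 were lower there and 0 higher (65.0% and 0.352%).

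Genes reported as repressed by MYC had a median change with siMITF of opposite sign on the 2 scales, 0.34 on the relative and -0.31 on the deposited scale. Of 13 tested, 0 were lower and 7 higher on the relative scale, and 3 were lower and 4 higher with THZ1 (median 0.17). CEBPD had 1.71, THBS1 1.15, CDKN1C, a cell cycle inhibitor, 1.13 and NDRG1 0.72 with siMITF, with limma adjusted p from 1.55e-06 to 8.76e-05. With THZ1, CDKN1B, another cell cycle inhibitor, had -1.01 and CEBPD -0.98, while CCN1 had 0.59. In the deposited values 4 of the 13 were lower and 1, CEBPD, higher with siMITF (65.0% and 0.352% of all genes), and 2 were lower and 0 higher with THZ1 (9.63% and 0.0753%).

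Targets of the Mondo proteins with MLX moved apart. Of 11 tested genes, 2 were lower and 5 higher with siMITF on the relative scale (median 0.07; 23.3% and 19.9% of all genes). With THZ1, 2 were lower and 3 higher (median 0.04; 21.8% and 13.0% of all). In the deposited values 6 were lower and 2 higher with siMITF (median -0.57), against 65.0% and 0.352% of all genes. With THZ1, 1 was lower and 1 higher there (median -0.13), against 9.63% and 0.0753%. TXNIP, the glucose-responsive arrestin that MondoA and MLX activate, had signals of 289 and 227 with siMITF, against 161 and 187 with siCtrl, and its relative change was 1.16 (limma adjusted p = 7.61e-06). With THZ1 it had 271 and 398, against 333 and 423 with DMSO, a relative change of -0.01 (adjusted p = 0.949). ARRDC3, a related arrestin, had 1.47 with siMITF and 0.64 with THZ1, and ARRDC4 0.80 and -0.05. PFKFB3, a regulator of glycolysis, had -0.79 with siMITF. KLF10 had 0.97 with THZ1 and -0.34 with siMITF, both past the test.

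Among the proteins that work with or on the network, 13 MYC cofactors had 4 lower and 2 higher with THZ1 on the relative scale. With siMITF they had 4 lower and 3 higher. Of all genes, 21.8% were lower and 13.0% higher with THZ1 on that scale, and 23.3% and 19.9% with siMITF. WDR5, a chromatin adaptor that holds MYC at its targets, had -0.89 with THZ1 (limma adjusted p = 0.000114) and -0.00 with siMITF, and the acetyltransferase KAT5 had -0.63 and -0.34, past the test in both. Of 9 SIN3 and HDAC corepressor genes, 1 was lower and 3 higher with THZ1, and 2 lower and 1 higher with siMITF, where SIN3B had 0.51 and RBBP7 -0.65. Of 17 genes of MYC protein turnover, 5 were lower and 1 higher with THZ1, led by TRIM32 (-0.81) and USP37 (-0.76), and 5 lower and 4 higher with siMITF. Of 14 regulators of MYC transcription or mRNA, 5 were lower and 2 higher with THZ1, and 6 lower and 3 higher with siMITF. Of these, IGF2BP1, which protects MYC mRNA, had -0.74 with THZ1 and 0.33 with siMITF, and LEF1, a Wnt effector, -0.70 and 0.47. The deposited siMITF changes of SIN3B, IGF2BP1 and LEF1 had the other sign, -0.13, -0.31 and -0.17. Deposited counts of lower genes with THZ1 were 2 cofactors, 0 corepressor genes, 3 turnover genes and 2 regulators (9.63% of all genes). With siMITF they were 9, 7, 12 and 10 in the same order of lists, where 65.0% of all genes were lower. In either comparison 0 were higher in any of the 4 lists (0.0753% of all genes with THZ1 and 0.352% with siMITF).

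**Figure D4:**
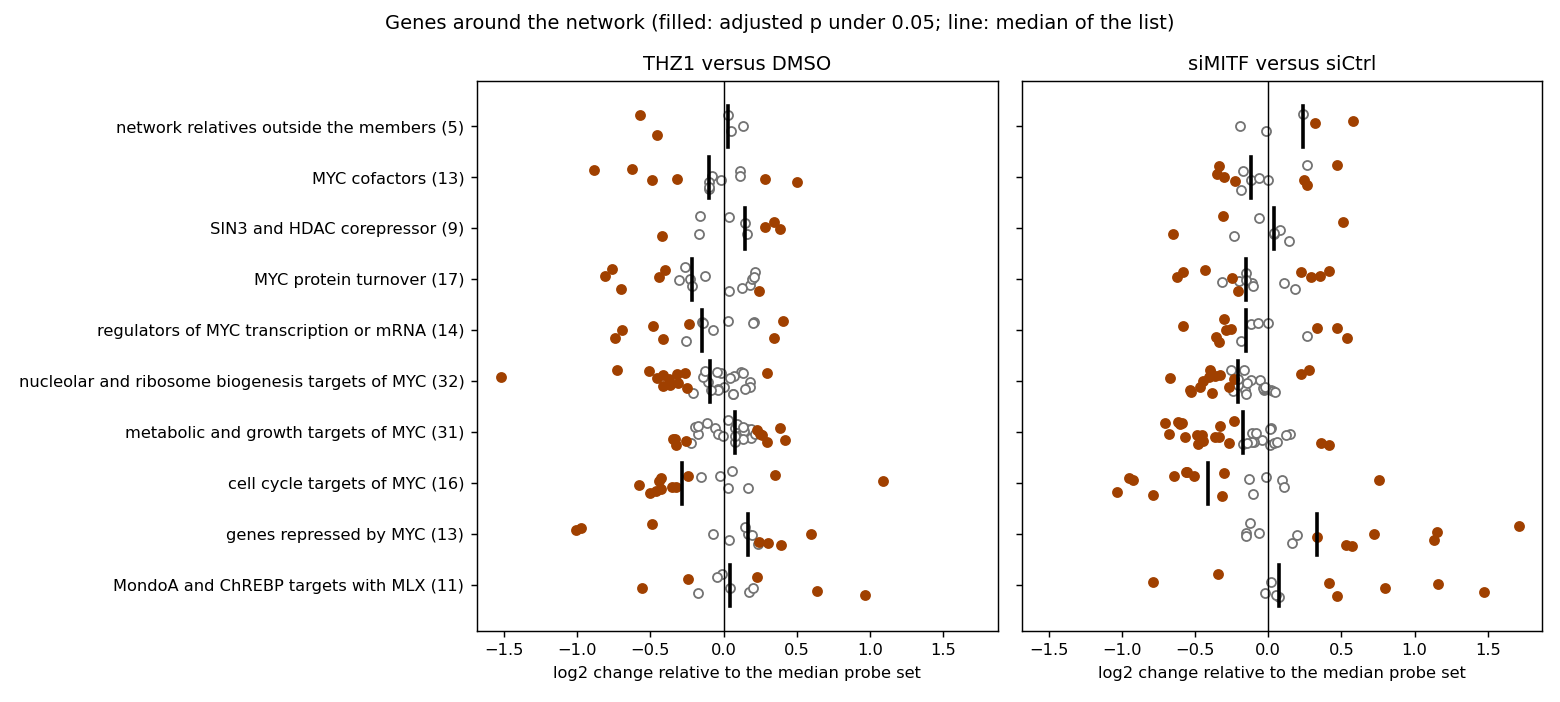
Change of each tested gene of the lists around the network relative to the median probe set, with THZ1 against DMSO (left) and siMITF against siCtrl (right). The x axis is the log2 change, the number of genes is in brackets, filled points passed at an adjusted p under 0.05, and the black line is the median of the list. The genes repressed by MYC have a median of 0.34 with siMITF, and the cell cycle targets -0.41.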

How the data were processed

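Human SK-MEL-5 mRNA was measured on 8 Affymetrix 3′ arrays. Per the labels' protocols, 100 ng of RNA was used per array, with ERCC spike-in RNA added in proportion to cell number. Per the submitters' processing notes the authors summarised probe sets with MAS5, without naming a version. What was deposited is a linear intensity for each probe set, which the series' design text calls cell number-normalized. How this was calculated is not given in the sources used here. Depth does not apply to arrays.

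Signals were taken as log2(signal + 16) and fitted in limma 3.58.1 (R 4.3.3) on all 8 arrays, a mean for each group, with empirical Bayes variances and Benjamini-Hochberg adjustment over 27167 probe sets. Probe sets below the 40th percentile were left out. On the relative scale each array was centred on the median deviation of the tested probe sets from their means. On that scale the prior had 6.91 degrees of freedom beside 4 residual. A gene in a list was represented by its brightest tested probe set. The fit was tested on simulated data. Gene IDs of 45208 of 45278 probe sets with 1 symbol were found in the RefSeq gene table of GRCh38.p14, while 70 were left with their platform symbol.

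The members, the lists and the tests were chosen with earlier results of these data known, and the lists were written from general knowledge. Named list genes were up to 4 per list and comparison with the lowest p on the relative scale. All network relatives and, for likeness, 5 genes for MYC and 2 for each other tested member were also named. The samples share replicate numbers 1 and 2, which the labels do not tie to a shared culture or day, so the tests used no pairing. Alternatives were pseudocounts of 1 and 64, no filter or the 60th percentile, 1 probe set per gene, own variances, a replicate block, the 4 arrays of a comparison alone, ERCC centring, quantile normalization and leaving out each array.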

Additional observations from a re-analysis of the deposited data

Results flagged for a closer look

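Relative to the median probe set, the changes with THZ1 and with siMITF differed for 3 member genes in a test of the difference itself. The difference, THZ1 minus siMITF, was -0.40 for MYC (-0.35 with THZ1 and 0.05 with siMITF), -0.86 for MXD4 (0.16 and 1.02) and 0.64 for MXI1 (0.42 and -0.22). Their limma adjusted p were 0.0278, 0.000255 and 0.00119. These are 3 of 7 tested genes, where 21.7% of all genes were lower and 18.7% higher. The difference for MYC did not pass under 7 of its 16 alternatives. On the deposited scale the difference for MXI1 passed, and those for MYC and MXD4 did not.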

How the results depend on the processing

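The brightest probe sets of the tested member genes gave 582 values under an alternative. Of these, 522 kept their side of the threshold, whether passed or not. A call was lost by 43 and gained by 17, and 0 that passed before or after changed direction. The other member probe sets, some with calls lost under most alternatives, are not in this count. Counts of calls moved more. With own variances 0 probe sets passed on the deposited scale in either comparison or in their difference (limma's linear model, 2873, 13785 and 4154 at an unadjusted p under 0.05), so 0 members passed. On the relative scale 5525 passed with THZ1, against 9025 in the main analysis, and 7926 with siMITF, against 11919. With 1 probe set per gene, 11947 features were tested. The deposited counts were 1208, 7608 and 1288 for THZ1, siMITF and their difference, and the relative counts 4635, 5276 and 4966. In the main analysis the same features had 137 lower and 1571 higher calls for the deposited difference. They had 2599 lower and 1559 higher relative calls with THZ1. The part of the number of features in these counts was not tested. With no filter, 45278 probe sets were tested. THZ1 then had 4638 relative calls and 7 members, and siMITF 16467 calls and 19 members, counted over the 30 member probe sets above the cut. The cause was not tested. Leaving out 1 array at a time gave 369 to 3724 deposited calls with THZ1 (0 to 5 members), 5637 to 17337 with siMITF (4 to 25 members) and 334 to 10543 for the difference (0 to 13 members). The relative counts were 5603 to 7087 (10 to 12 members), 7335 to 10137 (9 to 10) and 8199 to 10449 (11 to 14). The pairing of replicate numbers was checked on deviations from the group means, which correlated at 0.10 for THZ1 with DMSO and -0.17 for siMITF with siCtrl. A replicate block gave 6867 deposited calls and 8 members for the difference, against 4557 and 5, and moved no other count of calls by over 1.5 times. Signal over background limits MXD1 and the dim probe sets of MAX and MXD3, which lay below the cut.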
